A study of Homo sapiens with 10 samples.

Results

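Ceramide is the parent lipid of the sphingolipids, and 10 genes of its synthesis and further use were followed in prostate cancer cells with lowered or raised CPT1A. The genes were SPTLC1, SPTLC2, CERS2, CERS4, CERS5, CERS6, DEGS1, SGMS1, UGCG and SPHK1. They were taken by symbol from a compiled table of 57353 genes, and all 10 were among the 17230 genes that passed a filter on low counts and were tested. The cells were LNCaP-C4-2, a castration-resistant line derived from human prostate cancer, and CPT1A is the carnitine palmitoyltransferase that commits long-chain fatty acids to mitochondrial oxidation. Cells with a control shRNA (NT, 2 samples) and cells with an shRNA against CPT1A (KD, 3 samples) were selected with puromycin at 1 ug/ml. Cells with an empty virus (EV, 2 samples) and cells with a CPT1A cDNA (OE, 3 samples) were selected with blasticidin at 5 ug/ml. Each group is 1 line and no separate transductions are described, so p-values here measure only the spread between samples of a line, and other differences between the lines cannot be told apart from CPT1A.

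Poly(A) RNA was sequenced, and the samples held 23555205 to 28615770 counts. Levels of 1 gene across samples are given as CPM, counts scaled to the library sizes with TMM factors. CPT1A, the targeted gene, had 265.5 and 261.7 CPM in NT and 81.25, 86.4 and 86.2 CPM in KD. It had 325.7 and 317.7 CPM in EV and 869.8, 913.8 and 861.1 CPM in OE, so every sample followed its label. All 8 luminal prostate markers were tested, and their summed level ran from 5516 CPM in NT 1 to 10960 CPM in OE 2, with KLK3 the most abundant. Of these 8, 3 rose and 1 fell with the knockdown (beside 29.1% of all tested genes called), and with over-expression 4 rose and 1 fell (beside 21.9%, and 3 rose with library size alone). Between the controls 5 of the 8 were called, all higher in EV than in NT (beside 8.16%, median 0.424). The basal marker KRT5, the stromal marker COL1A2 and the endothelial marker PECAM1 had 0 counts in all samples, and the leukocyte marker PTPRC had at most 1 count in a sample. The summed levels reached at most 1.85 CPM for 3 basal genes, 0.0995 CPM for 2 endothelial genes, 0.340 CPM for 2 leukocyte genes and 3.98 CPM for 2 neuroendocrine genes, led by KRT14, CDH5, CD68 and SYP. The 3 stromal genes summed to 8.46 to 15.6 CPM, nearly all from COL1A1, which rose in the knockdown line, all 3 KD samples above both NT samples (0.63 on the log2 scale, edgeR adjusted p = 9.67e-06). The basal marker KRT14 rose there as well, all KD samples above both NT samples (1.97, edgeR adjusted p = 1.07e-05). For both genes all OE samples also lay above both EV samples. Their log2 fold changes there were 0.35 for COL1A1 and 0.83 for KRT14, and neither was called (edgeR adjusted p = 0.00741 and 0.0313). The part of these markers in the results on sphingolipid genes was not tested. The library KD 2 stood apart from its replicates, with a chi-square of 7.13 against KD 1 and 7.28 against KD 3 for each degree of freedom, while KD 1 and KD 3 gave 2.35. OE 2 stood apart as well, with 4.05 against OE 1 and 4.69 against OE 3, while OE 1 and OE 3 gave 2.23. Each sample was left out in turn.

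De novo synthesis starts at the endoplasmic reticulum, where serine palmitoyltransferase (SPT), built on SPTLC1 and SPTLC2, joins serine to palmitoyl-CoA. Ceramide synthases (CERS) then attach a second acyl chain, each with its own preference for chain length, and DEGS1 places the double bond that turns dihydroceramide into ceramide. SGMS1 converts ceramide to sphingomyelin in the Golgi, UGCG converts it to glucosylceramide, and SPHK1 phosphorylates the sphingosine released from it to sphingosine 1-phosphate. Palmitoyl-CoA is also the classical substrate of CPT1A, so both routes draw on long-chain acyl-CoA.

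DEGS1 had the highest level of the 10 genes in every line, and SPHK1 or CERS5 the lowest. Levels between genes are compared as TPM, counts per length of annotated exon scaled to the same sum in each sample. TPM carries no TMM factors, so 1 gene is compared between lines in CPM. In NT the mean levels (n = 2) were 272 TPM for DEGS1, 113 TPM for CERS4, 105 TPM for CERS2 and 47.6 TPM for CERS6. They were 21.2 TPM for SGMS1, 18.3 TPM for SPTLC2, 16.5 TPM for SPTLC1, 13.5 TPM for UGCG, 7.89 TPM for CERS5 and 5.56 TPM for SPHK1, and no neighbours in this order overlapped. The length covers all annotated exons, from 2446 bases for DEGS1 to 12287 for SPTLC2, so order and shares depend on the annotation. In CPM, without length, SPTLC2 (mean 73.3) and SPTLC1 (57.0) lay above SGMS1 (44.5) in NT, and CERS2 (158.9) above CERS4 (149.3). In KD the levels of SPTLC1 and SGMS1 overlapped, as did those of SPHK1 and CERS5, and in OE those of UGCG and SGMS1 and those of SGMS1 and SPTLC1. Of the summed TPM of CERS1, CERS2, CERS4, CERS5 and CERS6, CERS4 held 40.5% ± 1.01 and CERS2 37.7% ± 1.08 in NT (SD, n = 2). CERS6 held 17.1% ± 0.0223 in NT (SD, n = 2) and 17.4% ± 1.76 in KD (SD, n = 3). It held 18.1% ± 0.291 in EV (SD, n = 2) and 14.5% ± 0.714 in OE (SD, n = 3), a description with no test.

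**Figure D1:**
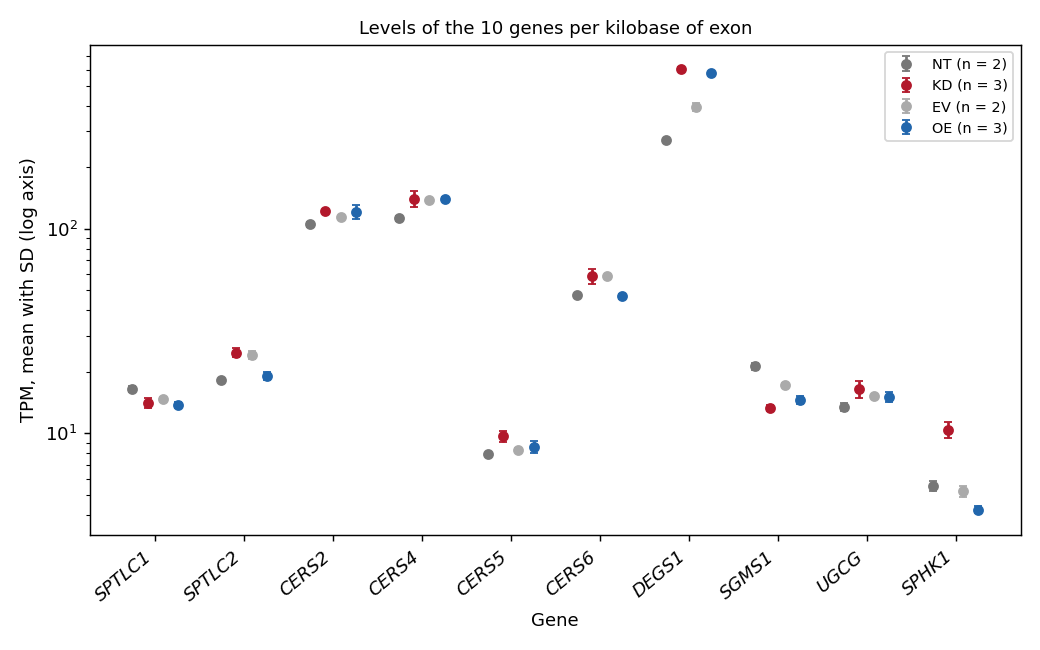
Levels of the 10 genes in TPM (log axis) by gene, as mean with SD over the 2 or 3 samples of each line. DEGS1 lies highest of the 10 genes in all 4 lines, at 272 TPM in NT. TPM has no TMM factors, and the order of lines can differ from that in CPM. DEGS1 has means of 604 TPM in KD and 574 TPM in OE, but of 434.7 CPM in KD and 492.9 CPM in OE.

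The first question is what the CPT1A shRNA changed against its control shRNA. In the knockdown line DEGS1, SPHK1 and SPTLC2 rose and SGMS1 and SPTLC1 fell, while the 4 ceramide synthases and UGCG did not pass the test. A gene was called when its adjusted p was under 0.0001 (edgeR quasi-likelihood test, Benjamini-Hochberg over all tested genes), and 5 of the 10 were, 3 of them higher. Of all tested genes 29.1% were called in KD versus NT, 16.4% higher and 12.8% lower. Of the 10973 genes with a mean of at least 5 CPM, a limit chosen after the values were seen that all 10 genes pass, 40.3% were called. The median log2 fold change was 0.146 over the 10 genes and -0.0196 over all tested genes. With 0.05 as the limit 7 of 10 passed, against 57.5% of all tested genes. Without KD 2 the same 5 genes were called, without NT 1 there were 2 and without NT 2 there were 3. Among all genes the 5022 calls became 3110 without NT 1 and 3278 without NT 2.

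SPTLC1 and SPTLC2, the core subunits of SPT, went in opposite directions in the knockdown line. SPTLC1 had 58.25 and 55.7 CPM in NT and 41.8, 44.4 and 45.6 CPM in KD. All KD samples lay below both NT samples, a log2 fold change of -0.37 ± 0.06 (SE, edgeR adjusted p = 5.72e-06). SPTLC2 had 73.5 and 73.0 CPM in NT and 92.4, 90.7 and 85.9 CPM in KD. All KD samples lay above both NT samples, a log2 fold change of 0.29 ± 0.05 (SE, edgeR adjusted p = 5.75e-05). The ratio of SPTLC2 to SPTLC1 counts was 1.26 and 1.31 in NT and 2.21, 2.04 and 1.88 in KD, with no test of its own. It was 1.81 and 2.01 in EV, a control line, where the second lies within the range of KD, and 1.59, 1.58 and 1.65 in OE. The SPTLC1 call was lost without NT 1 (-0.34, edgeR adjusted p = 0.000773), without NT 2 (-0.40, 0.000105) and with an offset for GC content (-0.24, 0.000444). The SPTLC2 call was lost without NT 1, NT 2, KD 1, EV 1 or EV 2 (edgeR adjusted p = 0.00169, 0.00203, 0.000595, 0.000137 and 0.000102), and with at least 10 counts asked of every sample (0.000107). Both calls were also lost when each arm was fitted alone (0.000152 and 0.000257).

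DEGS1, the dihydroceramide desaturase, had the largest difference of the 10 genes in KD versus NT. It had 217.5 and 216.1 CPM in NT and 423.4, 465.6 and 415.1 CPM in KD. All KD samples lay above both NT samples, at about 2 times their level, a log2 fold change of 1.00 ± 0.05 (SE) with a 95% confidence interval from 0.90 to 1.11 (edgeR adjusted p = 5.76e-14). By p it ranked 226 of the 17230 genes.

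SGMS1, a sphingomyelin synthase, fell. It had 45.7 and 43.25 CPM in NT and 23.9, 26.2 and 25.4 CPM in KD, so that the groups did not overlap. The log2 fold change was -0.82 ± 0.06 (SE, edgeR adjusted p = 1.11e-10). UGCG, which draws on the same ceramide for glycolipids, had 20.6 and 19.5 CPM in NT and 24.1, 21.8 and 20.5 CPM in KD. These overlapped, with a log2 fold change of 0.14 and a 95% confidence interval from -0.02 to 0.31 (edgeR adjusted p = 0.134). The UGCG value was 0.31 with the offset for GC content (0.000621) and 0.07 without KD 1 (0.483).

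SPHK1, a kinase that makes sphingosine 1-phosphate, rose. It had 7.66 and 8.34 CPM in NT and 12.95, 15.5 and 12.2 CPM in KD, and all KD samples lay above both NT samples. The log2 fold change was 0.76 ± 0.11 (SE, edgeR adjusted p = 2.54e-06). Without NT 1 it was 0.70 and not called (edgeR adjusted p = 0.000346). The related kinase SPHK2, named after its values were seen, had more counts, and the ratio of SPHK1 to SPHK2 counts was 0.409 ± 0.0456 in NT (SD, n = 2) and 0.579 ± 0.097 in KD (SD, n = 3), and 0.297 ± 0.027 in EV (SD, n = 2) and 0.204 ± 0.00897 in OE (SD, n = 3), with no test.

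The 4 ceramide synthases had log2 fold changes between 0.07 and 0.16 in KD versus NT. CERS2, the synthase of very long chains, had 161.2 and 156.5 CPM in NT and 164.8, 175 and 159.7 CPM in KD. These overlapped, and its log2 fold change of 0.07 turned to -0.04 with the offset for GC content. CERS6, which prefers C16 chains, had 105.7 and 107.1 CPM in NT and 122.9, 112.7 and 118.1 CPM in KD, all KD samples above both NT samples. Its log2 fold change of 0.15 passed 0.05 but not 0.0001 (edgeR adjusted p = 0.0122), while the offset for GC content gave 0.34 and a call (4.07e-08). CERS4 had 145.9 and 152.8 CPM in NT and 151.9, 191.9 and 158.6 CPM in KD, with the highest value in KD 2, the library that stood apart. Its log2 fold change of 0.16 also passed 0.05 but not 0.0001 (edgeR adjusted p = 0.0375), and it was 0.06 without KD 2 (0.291) and 0.01 with the offset for GC content (0.829). CERS5 ran from 17.3 to 20.2 CPM in these 5 samples, with all KD samples above both NT samples and an edgeR adjusted p of 0.143 for a log2 fold change of 0.14.

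**Figure D2:**
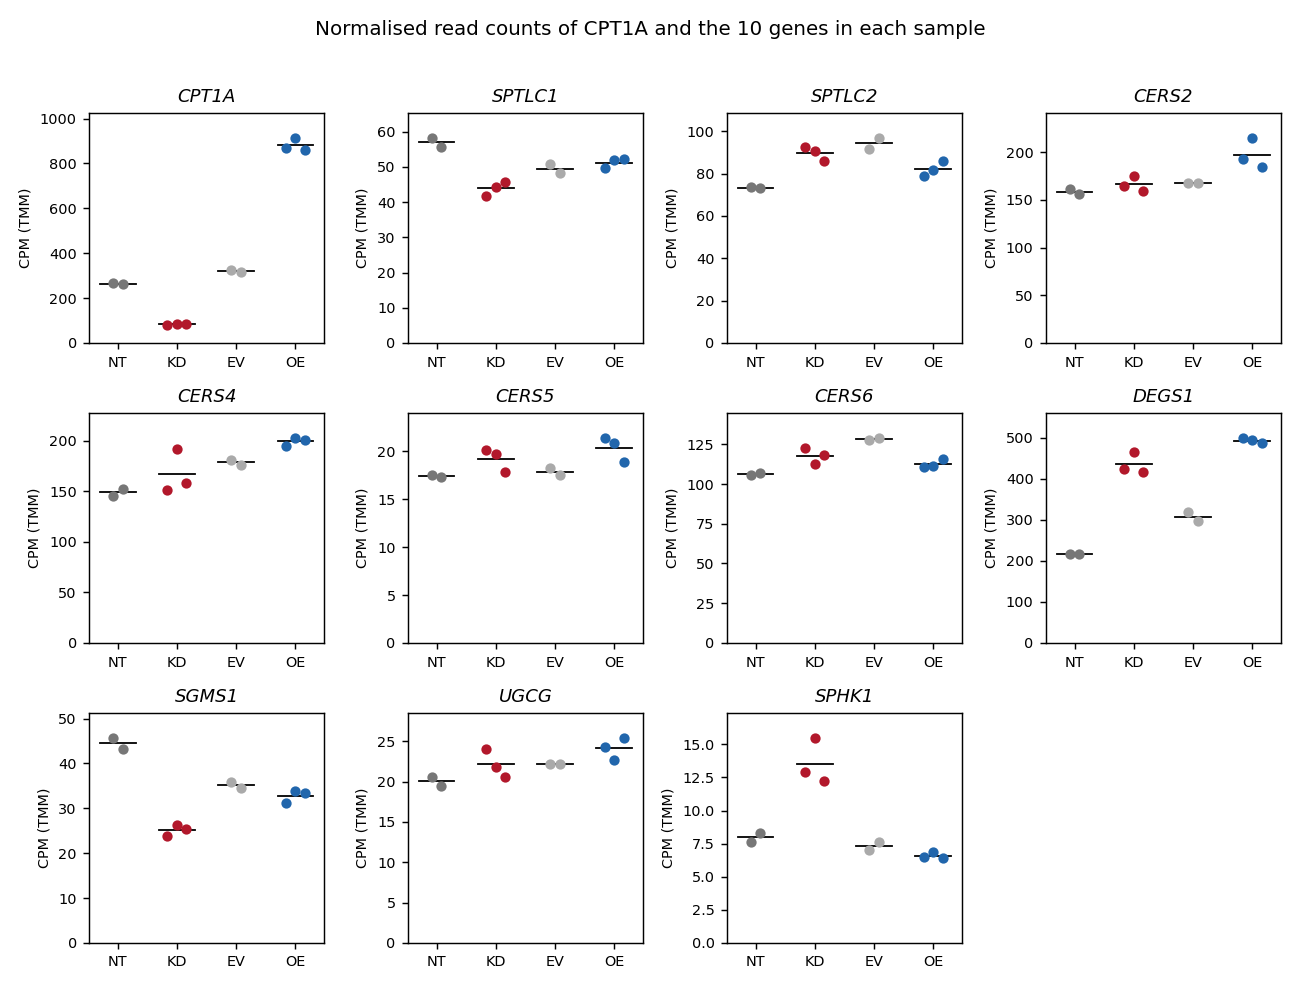
CPM of CPT1A and the 10 genes in each of the 10 samples by line, each point a sample and each bar the mean of its line, with axes from 0. DEGS1 lies at 217.5 and 216.1 CPM in NT and at 423.4, 465.6 and 415.1 CPM in KD, and SGMS1 at 45.7 and 43.25 CPM in NT and 23.9, 26.2 and 25.4 CPM in KD.

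The starts of the 5 genes called in KD versus NT are shown for their short motifs. RefSeq (GRCh38.p14) listed promoters for 8 of the 10 genes, all but CERS2 and CERS4. The lines give the 250 bases before the listed start farthest upstream, 5′ to 3′ on the strand of the gene, at chr1:224182990-224183239 (+) for DEGS1, chr17:76382954-76383203 (+) for SPHK1, chr14:77616638-77616887 (-) for SPTLC2, chr10:50623957-50624206 (-) for SGMS1 and chr9:92115414-92115663 (-) for SPTLC1. For DEGS1, SPHK1 and SGMS1 these windows lie inside the GENCODE gene, which begins farther upstream. Capitals mark the CCAAT box (CCAAT) and the GC box (GGGCGG) on either strand.
DEGS1: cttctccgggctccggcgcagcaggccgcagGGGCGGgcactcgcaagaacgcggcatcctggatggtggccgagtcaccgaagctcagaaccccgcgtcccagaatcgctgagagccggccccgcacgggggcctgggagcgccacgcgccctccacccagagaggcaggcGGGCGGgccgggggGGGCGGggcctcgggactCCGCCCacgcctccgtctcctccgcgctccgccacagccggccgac
SPHK1: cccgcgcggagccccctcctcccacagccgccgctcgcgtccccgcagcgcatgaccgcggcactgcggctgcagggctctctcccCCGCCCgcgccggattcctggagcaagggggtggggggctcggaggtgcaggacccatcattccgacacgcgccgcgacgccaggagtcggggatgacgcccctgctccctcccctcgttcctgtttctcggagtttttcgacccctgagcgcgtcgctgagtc
SPTLC2: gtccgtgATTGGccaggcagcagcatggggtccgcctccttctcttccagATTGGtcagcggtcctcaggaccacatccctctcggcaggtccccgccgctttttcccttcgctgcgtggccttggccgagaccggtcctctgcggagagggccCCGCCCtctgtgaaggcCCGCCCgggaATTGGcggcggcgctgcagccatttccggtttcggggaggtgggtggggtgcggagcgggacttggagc
SGMS1: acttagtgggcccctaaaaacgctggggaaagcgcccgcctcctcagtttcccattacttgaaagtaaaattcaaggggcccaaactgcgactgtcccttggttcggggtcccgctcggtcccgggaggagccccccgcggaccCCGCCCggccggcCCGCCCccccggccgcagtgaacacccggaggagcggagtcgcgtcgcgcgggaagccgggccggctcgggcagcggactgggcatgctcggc
SPTLC1: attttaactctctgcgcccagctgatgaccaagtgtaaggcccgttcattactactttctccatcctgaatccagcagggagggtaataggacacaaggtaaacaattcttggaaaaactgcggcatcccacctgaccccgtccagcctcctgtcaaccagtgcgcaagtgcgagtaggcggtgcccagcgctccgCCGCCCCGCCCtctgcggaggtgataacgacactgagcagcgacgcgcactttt
The GC box was found 4 times before DEGS1, 1 time before SPHK1 and 2 times before each of SPTLC2, SGMS1 and SPTLC1, where those of SPTLC1 overlap each other. Windows of the further listed starts, going downstream, held 0 for DEGS1 and 2 and 0 for SPHK1. Of 35116 RefSeq promoters of this length, 42.6% hold at least 1 GC box. SPTLC2 alone of these 5 had CCAAT boxes, 3 of them, and 32% of promoters hold at least 1. The TATA box (TATAAA, 10.7% of promoters), the E-box (CACGTG, 6.34%) and the C/EBP-ATF composite element (TGATGNAA, 3.14%) were searched on both strands too, and these letters are in none of the 5 windows. Genes that rose and genes that fell both had GC boxes, and a match is a description of letters only.

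The second question is what CPT1A over-expression changed against the empty virus, and of the 10 genes DEGS1 alone was called. DEGS1 had 318.9 and 296.6 CPM in EV and 499.5, 493.2 and 486 CPM in OE, with all OE samples above both EV samples. Its log2 fold change was 0.68 ± 0.05 (SE) with a 95% confidence interval from 0.57 to 0.79 (edgeR adjusted p = 1.9e-10). DEGS1 was thus above the matching control in the line with less CPT1A and in the line with more. This count of 1, a gene that was higher, stands beside 21.9% of all tested genes called in OE versus EV, 11.6% higher and 10.3% lower, and 31.7% of those with at least 5 CPM. With 0.05 as the limit 5 of 10 passed, against 52.0% of all tested genes. Scaling by library size alone shifted the median of all genes by -0.0977, from -0.0198 to -0.117, and that of the 10 genes from 0.0862 to -0.0117. It turned the calls among all genes from 2004 higher and 1774 lower into 1220 and 2168. Their sum of 3778 became 2065 without EV 1, 1740 without EV 2 and 2953 without OE 2, where DEGS1 was still the 1 call of the 10.

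The 9 other genes had log2 fold changes between -0.20 and 0.23 in OE versus EV. CERS2 had 168.2 and 168.3 CPM in EV and 193.2, 215.1 and 184.6 CPM in OE. All OE samples lay above both EV samples, a log2 fold change of 0.23 ± 0.06 (SE, edgeR adjusted p = 0.00131), which was called without KD 2 (0.23, 7.65e-05). Its highest level was in OE 2, and without that sample it was 0.17 (0.00963). SPTLC2 had 91.6 and 96.8 CPM in EV and 78.8, 81.8 and 86.1 CPM in OE, a log2 fold change of -0.20 ± 0.05 (SE, edgeR adjusted p = 0.00337). CERS6 had 127.8 and 129.1 CPM in EV and 110.8, 111.1 and 115.7 CPM in OE, a log2 fold change of -0.19 ± 0.05 (SE, edgeR adjusted p = 0.002). For both all OE samples lay below both EV samples. Library size alone gave lower values, -0.29 and -0.29 with a call for each (edgeR adjusted p = 8.42e-05 and 7.64e-05), while the offset for GC content turned both signs, to 0.03 and 0.14.

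SGMS1 had 36.0 and 34.6 CPM in EV and 31.2, 33.8 and 33.5 CPM in OE, all OE samples below both EV samples, with a 95% confidence interval of the log2 fold change from -0.24 to 0.03. SPHK1 had 7.02 and 7.63 CPM in EV and 6.50, 6.83 and 6.42 CPM in OE, again all below, with an interval from -0.41 to 0.10. With the offset for GC content SPHK1 was at -0.43 (edgeR adjusted p = 0.00221), and with library size alone SGMS1 was at -0.20 (0.0102) and CERS2 at 0.13. CERS4 was at 0.16 and turned to -0.07 with the offset for GC content, and SPTLC1 was at 0.05 and turned to -0.05 with library size alone. UGCG was at 0.12 and CERS5 at 0.19. With the offset for GC content SPTLC1 and UGCG were called, at 0.30 and 0.42 (edgeR adjusted p = 4.69e-05 and 2e-05).

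**Figure D3:**
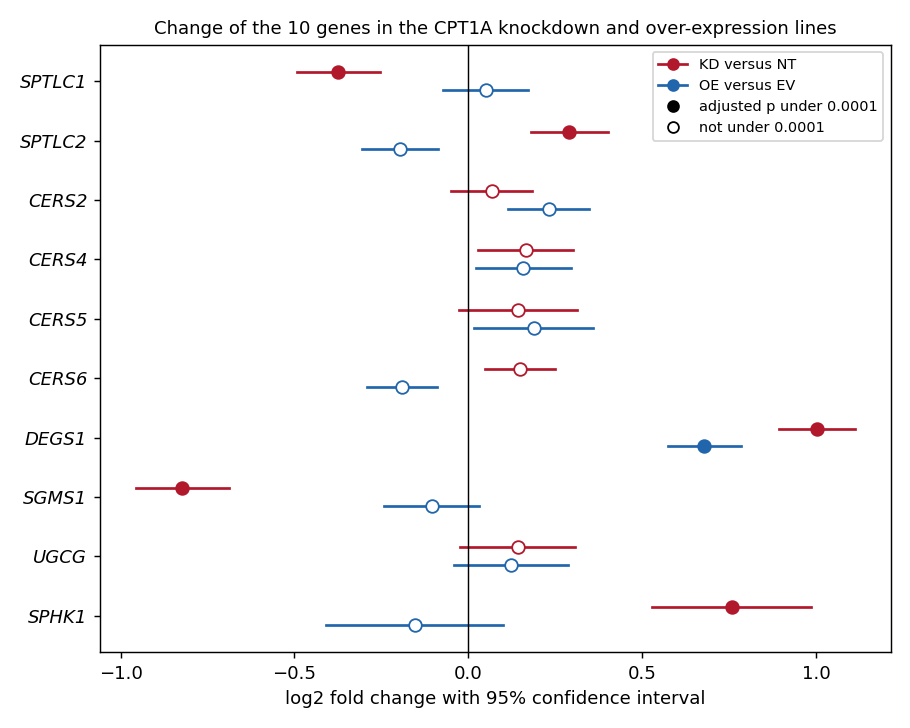
Log2 fold changes of the 10 genes in KD versus NT (red) and OE versus EV (blue) with 95% confidence intervals, filled where the adjusted p was under 0.0001. DEGS1 is filled in both comparisons, at 1.00 and 0.68, and SGMS1 is at -0.82 and -0.11.

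Whether over-expression and knockdown differed in their effect was tested as an interaction, OE minus EV less KD minus NT. SGMS1 was higher in it, at 0.72 ± 0.09 on the log2 scale (SE, edgeR adjusted p = 9.17e-07). SPTLC2 was lower, at -0.49 ± 0.08 (1.15e-05), and so was SPHK1, at -0.91 ± 0.17 (8.26e-05). These 3 of 10 compare with 15.9% of all tested genes, 6.94% higher and 8.98% lower, and 22.8% of those with at least 5 CPM. With 0.05 as the limit 6 of 10 passed, against 44.3% of all tested genes. DEGS1 had -0.32 (edgeR adjusted p = 0.000695), SPTLC1 0.42 (0.000179) and CERS6 -0.34 (0.000294). The SPHK1 call was lost without NT 1, NT 2, KD 1, EV 1, EV 2, OE 1, OE 2 or OE 3 (edgeR adjusted p = 0.00115, 0.000319, 0.000152, 0.00045, 0.00142, 0.000342, 0.000142 and 0.00032) and with limma-voom (0.000192), and also with at least 10 counts asked of every sample (edgeR, 0.000129). The SPTLC2 call was lost without NT 1, NT 2 or EV 2 (edgeR adjusted p = 0.000177, 0.000203 and 0.000362), each time leaving SGMS1 as the 1 call. Without KD 2 there were 5 calls, with SPTLC1 and CERS6 added (3.34e-05 and 8.09e-06), and 3696 among all genes. Library size alone added CERS6 and DEGS1, both lower, and the offset for GC content added SPTLC1, higher. Library size alone shifted the median of all genes by -0.134 and turned their 1196 higher and 1548 lower calls into 693 and 2127, and the 2744 calls became 1786 without NT 1 and 1793 without EV 2. No member was called here with a log2 fold change of 1 or more in either direction, the condition for looking up genes of like pattern, so none were.

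The control lines themselves differed in some of these genes, and that difference enters the interaction in full. CPT1A itself was called higher in EV than in NT, at 0.29 on the log2 scale (edgeR adjusted p = 9.8e-05), with both EV samples above. That call was lost with the size factors of DESeq2, with the offset for GC content (0.20), with at least 10 counts asked of every sample and without any 1 of the samples other than KD 2 and OE 2. DEGS1 was higher in EV than in NT, at 0.51 ± 0.06 on the log2 scale (SE, edgeR adjusted p = 2.07e-07), and SPTLC2 at 0.36 ± 0.06 (3.72e-05), in both cases with the 2 EV samples above the 2 NT samples. These 2 of 10, both higher, compare with 8.16% of all tested genes in EV versus NT, 5.25% higher and 2.91% lower, and 11.7% of those with at least 5 CPM. With 0.05 as the limit 6 of 10 passed, against 34.1% of all tested genes, among them SGMS1 at -0.33. The SPTLC2 call was lost without NT 1, NT 2, EV 1 or EV 2 (edgeR adjusted p = 0.0012, 0.0014, 0.00051 and 0.00245), and the 1406 calls among all genes became 554, 631, 509 and 620. Without KD 2 there were 5 calls, with CERS4, CERS6 and SGMS1 added, and 2438 among all genes. The offset for GC content added CERS6.

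Set directly against KD, without the controls, OE had less SPHK1 and more SGMS1. SPHK1 was at -1.04 ± 0.10 on the log2 scale (SE, edgeR adjusted p = 4.08e-09), with all 3 OE samples below all 3 KD samples. SGMS1 was at 0.38 ± 0.06 (SE, edgeR adjusted p = 7.12e-06), with all OE samples above. These 2 of 10, 1 higher and 1 lower, compare with 31.9% of all tested genes, 15.5% higher and 16.4% lower, and 44.6% of those with at least 5 CPM. With 0.05 as the limit 7 of 10 passed, against 59.8% of all tested genes. The SGMS1 call was lost without KD 1 (0.35, edgeR adjusted p = 0.000108) and with library size alone (0.25, 0.000839). That scaling shifted the median of all genes by -0.13 and turned their 2670 higher and 2820 lower calls into 1663 and 3705. Without KD 2 there were 5 calls, with CERS2, CERS4 and DEGS1 added, and 6241 among all genes. Without OE 3 there were 3, with CERS2 added (0.29, 5.19e-05), and 4726 among all genes. Without OE 2 the same 2 were called, and 4666 among all genes. With the offset for GC content there were 6 calls, and 5104 among all genes in place of 5490. CERS6 turned from -0.07 to 0.24 (edgeR adjusted p = 1.61e-06), and DEGS1 went from 0.18 to 0.33 (5.88e-08), SPTLC1 from 0.22 to 0.46 (3.29e-09) and UGCG from 0.13 to 0.41 (2.57e-06). Library size alone added SPTLC2 at -0.25 (8.2e-05). All these comparisons share samples, so their values for a gene are not independent of each other.

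The 10 genes lie on 8 chromosomes (GRCh38, GENCODE). DEGS1 is at chr1:224175756-224193441, SGMS1 at chr10:50305586-50625163, SPHK1 at chr17:76376584-76387860, SPTLC1 at chr9:92000087-92115413 and SPTLC2 at chr14:77505997-77616637. Around DEGS1 the tested genes within 5 Mb (64 genes) had a median log2 fold change of 0.075 in KD versus NT and 0.090 in OE versus EV. The medians around SGMS1 were -0.076 and -0.150 (34 genes) and those around SPHK1 0.201 and 0.106 (119 genes). They were -0.182 and -0.028 around SPTLC1 (48 genes) and -0.091 and 0.002 around SPTLC2 (68 genes). CERS2 shares 20.4% of its exon bases with SETDB1 and 16.8% with an unnamed lncRNA, CERS6 shares 43.8% with CERS6-AS1, SGMS1 3.71% with SGMS1-AS1 and 1.85% with an unnamed lncRNA, and SPHK1 1.34% with PRPSAP1, all on the opposite strand. The strand setting of the counting is not given in the sources used here, so what these neighbours add to the counts cannot be told apart. CERS6-AS1 itself held 14 to 44 counts in a sample, SGMS1-AS1 100 to 177, PRPSAP1 1168 to 1446 and SETDB1 1285 to 1745.

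Around the 10 genes, 10 lists of the wider pathway held 78 tested genes, the 10 genes included. Knockdown against its control gave 36 calls, 20 of them higher (46.2%, beside 29.1% of all tested genes and 40.3% of those with at least 5 CPM). Over-expression against its control gave 20, of which 12 were higher (25.6%, beside 21.9% and 31.7%), and with library size alone 9 were higher and 13 lower. The interaction had 28 calls, of which 11 were higher (35.9%, beside 15.9% and 22.8%), and with library size alone 8 higher and 21 lower. The control lines differed in 13, with 11 higher in EV (16.7%, beside 8.16% and 11.7%), and in 9 with library size alone. The direct comparison had 39, with 23 higher in OE (50%, beside 31.9% and 44.6%), and 15 higher and 20 lower with library size alone. The pooled shares do not describe each list. In KD versus NT the serine supply list had 100% called and the acyl chain list 75%, and the other lists 14.3% to 62.5%. In the interaction these 2 lists had 100% and 66.7%, and the other lists 0% to 60%. For each list below, its calls in KD versus NT stand beside 29.1% of all tested genes (16.4% higher, 12.8% lower) and those in OE versus EV beside 21.9% (11.6% higher, 10.3% lower). Calls in the interaction stand beside 15.9% (6.94% higher, 8.98% lower), and those in EV versus NT beside 8.16% (5.25% higher, 2.91% lower). The median log2 fold change over the 78 was 0.146 in KD versus NT and 0.0211 in OE versus EV, the latter -0.0769 with library size alone, against -0.0196 and -0.0198 over all tested genes. COL4A3BP, B4GALT5, B4GALNT1, SMPD2, SMPDL3B, SGPP1, SGPL1, ALDH3A2, ELOVL1, HSD17B12, HACD3, PSPH, SLC1A5 and CERK are named to spell out small counts, after their values were seen, and of these only B4GALT5, B4GALNT1 and SLC1A5 were followed with samples left out, in EV versus NT alone.

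Serine is a substrate of SPT, and its supply list had every gene called in KD versus NT. Of 7 tested genes 6 fell and 1 rose (median -0.59), while in OE versus EV 5 rose and 0 fell (median 0.387, and 3 rose with library size alone). PSAT1, an enzyme of serine synthesis, had 579 and 567.6 CPM in NT and 247.4, 272.1 and 252.2 CPM in KD. All KD samples lay below both NT samples, a log2 fold change of -1.16 (edgeR adjusted p = 2.37e-15). In OE versus EV PSAT1 was at 0.12 and not called (edgeR adjusted p = 0.057). For this gene EV was also below NT, at -0.42 (3.11e-06), a call lost without NT 1, NT 2, EV 1 or EV 2. The other call of this list in EV versus NT went the opposite way, with SLC1A5 higher at 0.34 (edgeR adjusted p = 6.91e-05), lost with any 1 of NT 1, NT 2, KD 1, EV 1, EV 2, OE 1 and OE 3 left out, with the offset for GC content (0.20) and with at least 10 counts asked of every sample. SHMT2, the mitochondrial serine hydroxymethyltransferase, was at -0.58 in KD versus NT and 1.22 in OE versus EV, and the transporter SLC1A4 at -0.95 and 0.72. PHGDH, the first enzyme of serine synthesis, was at -0.81 and 0.39, the latter not called without EV 1 or EV 2 (edgeR adjusted p = 0.000259 and 0.000558), with library size alone (0.000104) or with the offset for GC content (0.000114). PSPH and SLC1A5 were the other 2 that fell and rose. The gene that rose in KD versus NT was the cytosolic SHMT1, at 1.02. In the interaction all 7 were called, 6 higher and 1 lower (median 1.2, beside 15.9% of all tested genes).

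Ceramide synthases also need acyl chains, and 9 of 12 tested genes of fatty acid elongation, fatty acid 2-hydroxylation and acyl-CoA binding rose in KD versus NT, where 0 fell (75% called, beside 29.1% of all tested genes and 40.3% of those with at least 5 CPM, median 0.777). ELOVL6, which elongates C16 chains, had 9.02 and 8.22 CPM in NT and 28.5, 23.63 and 27.9 CPM in KD, with no overlap. Its log2 fold change was 1.63 (edgeR adjusted p = 1.13e-12), and -1.43 in the interaction. ELOVL2, an elongase of polyunsaturated chains, was at 1.73 and DBI, the acyl-CoA binding protein, at 1.02. The control lines differed here too, with 4 of the 12 called higher in EV than in NT (beside 8.16% of all tested genes), ELOVL5 at 1.25, ELOVL7, named after its values were seen, at 1.05, ELOVL2 at 1.03 and DBI at 0.45. The calls of ELOVL2 and DBI were lost with library size alone (edgeR adjusted p = 0.000102 and 0.000154) and without NT 1, EV 1 or EV 2, and that of DBI also without NT 2. Library size alone shifted the median of all genes by 0.00397 in EV versus NT. ELOVL5 was at 0.81 in KD versus NT. The enoyl-CoA reductase TECR rose in OE versus EV, at 0.71, as did ELOVL1, while HSD17B12, an enzyme of the same elongation cycle, fell, at -0.88, as did HACD3. In the interaction 8 of the 12 were called, all lower (median -0.746, beside 15.9% of all tested genes).

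Of 8 tested genes of the SPT complex, its regulators and the reductase of the next step 3 were called in KD versus NT, SPTLC1, SPTLC2 and ORMDL1 (37.5%, beside 29.1% of all tested genes and 40.3% of those with at least 5 CPM, median 0.246). ORMDL1, an inhibitor of SPT, had 36.4 and 34.3 CPM in NT and 26.1, 25.2 and 27.3 CPM in KD, a log2 fold change of -0.43 (edgeR adjusted p = 5e-06). It had 32.1 and 31.7 CPM in EV and 20.4, 19.4 and 20.7 CPM in OE, a log2 fold change of -0.66 (3.22e-08), and was the 1 gene of this list called there. All samples of KD and of OE lay below both of their controls. The call in KD versus NT was lost without NT 1 (-0.39, 0.000772), and the offset for GC content ended both, at -0.14 and -0.23. The list median in OE versus EV was 0.044, and -0.0541 with library size alone, which added SPTLC2 as a call. Of 7 tested ceramide synthases and desaturases DEGS1 was the 1 called in either comparison (medians 0.148 and 0.188). With library size alone there were 2 calls in OE versus EV, 1 higher and 1 lower (median 0.0905).

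Of 5 tested genes of sphingomyelin and ceramide phosphate synthesis and ceramide transport, SGMS1 and the ceramide kinase CERK fell in KD versus NT (median -0.204). CERK had 40.2 and 38.9 CPM in NT and 19.8, 23.99 and 18.7 CPM in KD, a log2 fold change of -0.93 with all KD samples below (edgeR adjusted p = 9.4e-10). SAMD8, a ceramide phosphoethanolamine synthase, was the 1 call in OE versus EV, at -0.43 (list median -0.23). It was not called without EV 1, EV 2, OE 1 or OE 2 (edgeR adjusted p = 0.00021, 0.00296, 0.000264 and 0.000218) nor with the offset for GC content, at -0.06. In the interaction SGMS1 and CERK were higher and COL4A3BP, the ceramide transporter, lower (3 of 5, beside 15.9% of all tested genes), and with library size alone 1 was higher and 1 lower.

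Of 10 tested genes of glycosphingolipid synthesis and transfer UGT8 and B4GALT5 rose and A4GALT fell in KD versus NT (median 0.0739), and library size alone gave 3 higher and 1 lower. UGT8, the galactosylceramide synthase, had 5.62 and 6.195 CPM in NT and 14.5, 13.6 and 12.9 CPM in KD, all above, a log2 fold change of 1.21 (edgeR adjusted p = 2.12e-09). It was also higher in EV than in NT, at 0.76 (5.06e-05), a call lost with library size alone (0.000151), with limma-voom (0.000111) and without NT 1, NT 2, EV 1, EV 2 or OE 1. The median of all genes shifted by 0.00397 with library size alone in EV versus NT. Of the 10 genes of the list 3 were called there (beside 8.16% of all tested genes), B4GALT5 also higher in EV, at 0.45 (1.42e-05), and B4GALNT1 lower, at -0.61 (7.55e-06). Each was lost without NT 1 or NT 2, B4GALT5 also without EV 1 and B4GALNT1 without EV 2. In the interaction 3 of the 10 were called, 1 higher and 2 lower (beside 15.9% of all tested genes). UGT8 had -1.75 there and A4GALT 1.68, and library size alone gave 0 higher and 2 lower. A4GALT, the globotriaosylceramide synthase, was at -1.22, from 2.75 and 2.54 CPM in NT to 1.23, 0.947 and 1.23 CPM in KD, and was not called without NT 1 or NT 2 (edgeR adjusted p = 0.00098 and 0.00026). ST3GAL5, the GM3 synthase, was the 1 call in OE versus EV (list median -0.137, and -0.235 with library size alone). It had 4.41 and 3.975 CPM in EV and 2.15, 1.765 and 1.82 CPM in OE, all below, a log2 fold change of -1.13 (edgeR adjusted p = 5.69e-06), and without EV 1 it was -1.04 and not called (0.000462).

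Sphingomyelinases release ceramide from sphingomyelin. Of 5 tested genes of this list SMPD4 and SMPDL3B rose in KD versus NT (median 0.425), and in OE versus EV these rose and SMPD2 fell (median 0.328), where library size alone gave 1 higher and 1 lower. In the interaction 2 of the 5 were called, both lower (beside 15.9% of all tested genes). Between the controls all 5 lay higher in EV than in NT (median 0.424), and 1 was called (beside 8.16%). This was SMPDL3B, at 0.43 (edgeR adjusted p = 9.86e-05), and with library size alone 0 were called. SMPD4, a neutral sphingomyelinase, had 74.2 and 73 CPM in NT and between 125.5 and 141.4 CPM in KD, all above, a log2 fold change of 0.86 (edgeR adjusted p = 2.17e-12). In OE versus EV it was at 0.40, and 0.20 with the offset for GC content, and was not called without EV 1 or EV 2 (edgeR adjusted p = 0.000102 and 0.00013).

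Of 4 tested ceramidases, which release sphingosine from ceramide, ASAH1, the lysosomal form, was called in KD versus NT, at -0.26 (median 0.113), and ASAH1 and ACER3, an alkaline form, in OE versus EV, at -0.31 and -0.75 (median -0.326). The ASAH1 call in KD versus NT was lost without NT 1, NT 2 or KD 1 (edgeR adjusted p = 0.00215, 0.000602 and 0.000171) and with library size alone (0.000318), and that in OE versus EV without EV 1 or EV 2 (0.000337 and 0.000474). The offset for GC content ended both, at -0.11 and -0.04. Of 12 tested genes of glycosphingolipid breakdown 2 rose and 1 fell in KD versus NT (median 0.0179, and 2 higher and 0 lower with a median of 0.0531 with library size alone), and 1 rose in OE versus EV (median 0.054). With library size alone 1 was called higher and 2 lower in OE versus EV (median -0.044). In the direct comparison 7 of the 12 were called, all higher in OE (58.3%, beside 31.9% of all tested genes), and 3 higher and 1 lower with library size alone.

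Of 8 tested genes of sphingosine 1-phosphate metabolism and reception SPHK1 and S1PR3 rose in KD versus NT and SGPP1, SGPL1 and ALDH3A2, which act in its breakdown, fell (median -0.383), and library size alone gave 2 higher and 2 lower. S1PR3, a receptor for sphingosine 1-phosphate, was the 1 call in OE versus EV (median -0.0718), and library size alone gave 1 higher and 1 lower (median -0.17). It had 51.2 and 48.5 CPM in NT and 133.5, 171.5 and 143.8 CPM in KD, and 39.7 and 42.9 CPM in EV and 152.8, 151.2 and 162.5 CPM in OE. All samples of KD and of OE lay above both of their controls, with log2 fold changes of 1.59 and 1.91 (edgeR adjusted p = 1.63e-14 and 3.32e-15) and 0.33 in the interaction (0.0163). The receptors S1PR1, S1PR4 and S1PR5 had at most 5 counts in a sample and were not tested.

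**Figure D4:**
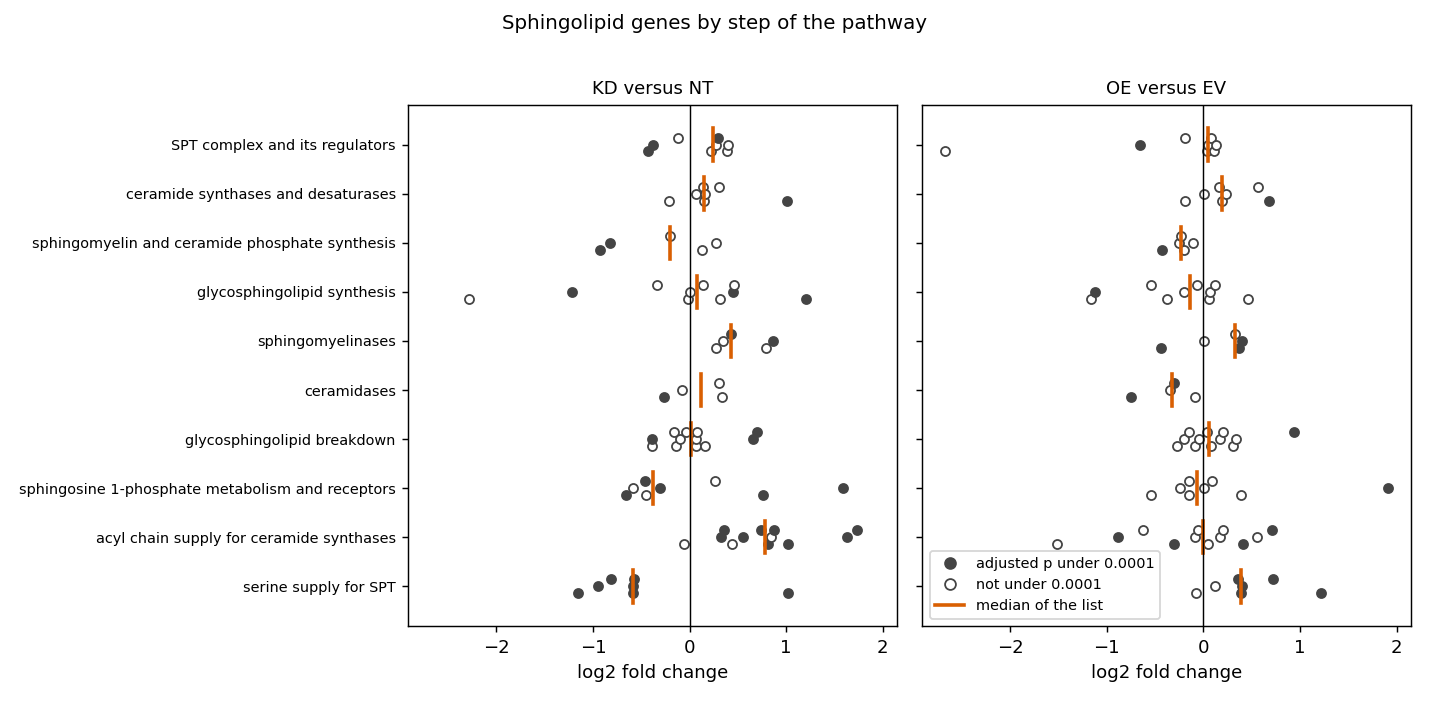
Log2 fold changes of the tested genes in 10 lists of the sphingolipid pathway, with KD versus NT on the left and OE versus EV on the right, each point a gene, filled where the adjusted p was under 0.0001, and the list median as an orange bar. The acyl chain list has its median at 0.777 in KD versus NT, and the serine list has -0.59 there and 0.387 in OE versus EV.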

How the data were processed

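RNA of 10 samples was read in pairs after poly(A) selection. The authors trimmed the reads with BBDuk and mapped them with STAR 2.6.0a to the human transcriptome (hg38). The deposited values are whole-number counts for each gene symbol. Strand and multi-mapping settings are not given in the sources used here.

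Groups follow the line in each label. After filterByExpr and TMM scaling, edgeR 4.0.16 (R 4.3.3) fitted 1 mean per line to all 10 samples (quasi-likelihood F test). Benjamini-Hochberg adjustment ran over all 17230 tested genes, with calls at 0.0001, a limit the study gives. The SE is the log2 fold change over the square root of F. Depth had a median of 25567419 counts for NT, 25034350 for KD, 24810118 for EV and 26293196 for OE. At this depth 3 counts equal 0.0995 to 0.136 CPM, and such floors cover counting error only. TPM used the 14337 tested genes with an exon length in GENCODE. The procedure was tested on simulated data. Alternatives used DESeq2 1.42.0 and limma 3.58.1, other scalings, filters and limits, each arm alone, a GC offset, the replicate block and each sample left out.

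The 10 genes and the lists, written from general knowledge, were chosen with earlier results of these data known. Named from each list were genes past the limit whose log2 fold change reached 1 in either direction in KD versus NT, OE versus EV or the interaction, and the gene of smallest p in each of the first 2. The table holds CERT1 as COL4A3BP. A gene of the glycosphingolipid breakdown list that this rule takes is not reported here.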

Additional observations from a re-analysis of the deposited data

How the results depend on the processing

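The counts of the 10 genes and of all genes and the log2 fold changes of the 10 genes were recomputed with 1 choice changed at a time, as were those of the genes named by rule in KD versus NT, OE versus EV and the interaction and of CPT1A and 9 pathway genes in EV versus NT. Lists were counted again only at 0.05 and with library size only, and the cause of a difference was not tested unless the setting itself holds fewer genes or samples. The number of the 10 genes called in KD versus NT was 5, and 3 with each arm fitted alone and 1 when a log2 fold change of 1 or more was required. In OE versus EV it was 1, and 3 with library size only, 2 without a filter, 5 at 0.05, 0 when that size was required and 3 with the GC offset. In the interaction it was 3, and 5 with library size only, without a filter and with the DESeq2 Wald test, 6 at 0.05 and 0 when that size was required. In EV versus NT it was 2, and 4 without a filter, 6 at 0.05 and 0 when that size was required. In OE versus KD it was 2, and 5 without a filter, 7 at 0.05, 1 when that size was required and 6 with the GC offset. These counts for the 10 genes leave out settings that changed a count by a factor of 1.5 or less. Among those left out, the DESeq2 Wald test gave 3 in EV versus NT, with CERS6 added, and 3 in OE versus KD, with CERS2 added.

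Among all genes the limit of 0.05 gave 9905, 8956, 7631, 5867 and 10301 calls in KD versus NT, OE versus EV, the interaction, EV versus NT and OE versus KD, in that order, and requiring a log2 fold change of 1 or more left 1186, 506, 962, 256 and 1075. EV versus NT had 2306 without a filter, in place of 1406. OE versus EV had 4888 without a filter and 2990 with the GC offset, in place of 3778. The interaction had 3646 without a filter and 3030 with the DESeq2 Wald test, in place of 2744. OE versus KD had 6485 without a filter, in place of 5490, and KD versus NT 3732 with each arm fitted alone, in place of 5022. Of the pathway lists, 59, 43, 52 and 39 genes passed 0.05 in the first 4 comparisons. Leaving out each sample in turn gave 2 to 5, 1 to 2, 1 to 5, 1 to 5 and 1 to 5 of the 10 genes, and 3110 to 5339, 1740 to 4969, 1786 to 3696, 509 to 2438 and 4456 to 6241 of all genes, and a lone sample left in a control line is assumed to vary like the other lines.

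Samples with the same replicate number did not deviate together (mean correlation -0.00282 over 13 pairs, from -0.0443 to 0.0783), so no pairing by number was seen. With 2 or 3 samples in a line this cannot tell whether the numbers mark a shared culture date, which the sources used here do not give. With the replicate block the 10 genes had 2 calls in OE versus EV, with CERS2 added, 4 in the interaction, with SPTLC1 added, and 4 in OE versus KD, with CERS2 and CERS4 added.

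The signs below turned. SPTLC2, CERS4 and CERS6 in OE versus EV, SAMD8 in KD versus NT and SPTLC2 in OE versus KD had passed 0.05 before. With the GC offset, for which 83.2% of tested genes had data, KD versus NT turned to -0.0398 for CERS2, 0.0164 for SAMD8 and 0.0440 for ST3GAL5, and OE versus EV to 0.0276 for SPTLC2, -0.0706 for CERS4, 0.14 for CERS6 and 0.0073 for SGMS1. The same offset turned the interaction to 0.11 for UGCG and 0.0697 for ASAH1, EV versus NT to -0.0074 for CERS2, and OE versus KD to 0.0879 for SPTLC2 and 0.24 for CERS6. With library size only, ST3GAL5 turned to 0.0209 in KD versus NT, SPTLC1 to -0.0481 in OE versus EV, CERS5 to -0.0885 in the interaction and -0.0455 in OE versus KD, and UGCG to -0.0032 in OE versus KD. The replicate block turned ST3GAL5 to 0.0456 in KD versus NT, and limma-voom turned CERS4 to 0.0009 in the interaction. With 1 sample left out, ST3GAL5 ran from -0.0976 to 0.0549 in KD versus NT. In the interaction CERS4 ran from -0.0608 to 0.1008, CERS5 from -0.0028 to 0.0989 and UGCG from -0.0667 to 0.0549, and in EV versus NT CERS5 ran from -0.0012 to 0.0691. Fitting each arm alone gives no value for the interaction, EV versus NT or OE versus KD.

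DEGS1 in KD versus NT, OE versus EV and EV versus NT, SGMS1 in KD versus NT and the interaction, and SPHK1 in OE versus KD kept their calls in every fit that left out 1 of the 10 samples.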
